A study of Mus musculus with 12 samples.

Results

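The 10 mouse genes described here encode the 3 TGF-beta ligands (Tgfb1, Tgfb2 and Tgfb3), their receptors (Tgfbr1, Tgfbr2 and Tgfbr3) and the latent TGF-beta binding proteins (Ltbp1, Ltbp2, Ltbp3 and Ltbp4). They were taken by gene symbol from the 23077 genes of the deposited expression table, and all 10 were found. Each of the 10 reached 10 or more in 3 or more libraries and was tested together with all genes that did, 14207 in number.

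TGF-beta is made as a precursor whose cleaved propeptide stays wrapped around the growth factor and keeps it silent. A latent TGF-beta binding protein ties this complex to fibrillin and fibronectin in the matrix, from which integrins, thrombospondin and proteases release it. The freed ligand binds the type II receptor, which phosphorylates the type I receptor kinase, and that kinase passes the signal to SMAD2 and SMAD3. Fibroblasts both make and answer TGF-beta, a signal known for driving them towards contractile, collagen-rich cells.

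The cells were primary mouse embryonic fibroblasts that carry the Hb9::GFP transgene, a reporter of motor neuron fate, and all were infected with a retrovirus for Ngn2, Isl1 and Lhx3 (NIL) to turn them into induced motor neurons. The NIL group received that virus only. SDD also received SNAP-p53DD, a SNAP-tagged dominant-negative p53. SDDIR received the same SNAP-p53DD followed by an IRES and HRAS(G12V), a constantly active RAS, and RISDD received HRAS(G12V) before the IRES and SNAP-p53DD after it. All groups went into N3 medium on day 3 after infection and were collected on day 4. From day 3 the medium of SDD, SDDIR and RISDD, but not of NIL, held RepSox, which blocks the type I TGF-beta receptor kinase encoded by Tgfbr1. The sort kept all live single cells of NIL, and the SNAP-positive cells of the rest. SDD and NIL therefore differed in a virus, in RepSox and in the sort, whose parts in a difference from NIL cannot be told apart. SDD, SDDIR and RISDD shared RepSox and the sort.

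PolyA RNA of sorted cells was sequenced in 3 libraries each of NIL, SDD and RISDD and 2 of SDDIR, labelled as biological replicates A to C. Nothing further says how separate the cultures were, so a p-value here speaks only of the spread among these samples. Recovered reads ran from 14872639 to 29815073 per library. The value of the Trp53 row, which reads of the p53DD construct may enter, averaged 3201 in NIL and 33173 to 44631 in the other groups, so the p53DD labels held, and the HRAS labels were not checked in this way. NIL C stood apart: it lay at -114 on the second principal component against -17.1 to 53.5 for the other 10 libraries, and mitochondrial genes took 0.537% of its signal against 2.6% to 4.04%. Changes of the 10 genes against NIL are therefore also given without NIL C where that altered a call or a direction. Of the SDDIR libraries, that called B here may be replicate B or C. In bulk RNA, fewer cells of a type and less RNA per cell cannot be told apart.

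The promoters of 4 members are printed as contrasts: Tgfb1 and Tgfb2 changed in opposite directions, and Ltbp3 fell further than Ltbp1. Promoters of 8 of the 10 members were matched by symbol in RefSeq (GRCm38.p6), each a window of 300 bases, and the first of 2 windows is used for Ltbp1. Of each, the 280 bases from 250 before the transcription start to 30 after it are shown, 5′ to 3′ on the gene's strand: chr7:25686752-25687031 (plus strand), chr1:186705960-186706239 (minus strand), chr17:75005279-75005558 (plus strand) and chr19:5740650-5740929 (plus strand). Capitals mark every match, on either strand, to TGANTCA (AP-1), TGACGTCA (CRE), CACGTG (E-box), GTCTAGAC (SMAD), TATAAA (core box) or GGGCGG (GC box).
Tgfb1: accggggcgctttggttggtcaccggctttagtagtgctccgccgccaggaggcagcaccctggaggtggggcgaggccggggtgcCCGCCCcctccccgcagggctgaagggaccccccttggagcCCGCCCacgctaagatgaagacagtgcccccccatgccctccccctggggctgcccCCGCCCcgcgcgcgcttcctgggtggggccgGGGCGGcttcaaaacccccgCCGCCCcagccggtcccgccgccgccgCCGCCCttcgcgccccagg
Tgfb2: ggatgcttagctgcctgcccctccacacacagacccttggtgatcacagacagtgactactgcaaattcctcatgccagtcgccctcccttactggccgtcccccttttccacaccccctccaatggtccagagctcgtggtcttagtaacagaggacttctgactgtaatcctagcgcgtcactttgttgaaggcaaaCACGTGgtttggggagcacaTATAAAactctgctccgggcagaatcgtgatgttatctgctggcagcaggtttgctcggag
Ltbp1: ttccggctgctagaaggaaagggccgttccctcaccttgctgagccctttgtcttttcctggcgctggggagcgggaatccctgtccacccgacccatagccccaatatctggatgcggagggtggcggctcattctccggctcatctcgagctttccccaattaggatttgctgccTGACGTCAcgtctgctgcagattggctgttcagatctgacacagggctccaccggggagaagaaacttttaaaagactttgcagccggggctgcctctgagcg
Ltbp3: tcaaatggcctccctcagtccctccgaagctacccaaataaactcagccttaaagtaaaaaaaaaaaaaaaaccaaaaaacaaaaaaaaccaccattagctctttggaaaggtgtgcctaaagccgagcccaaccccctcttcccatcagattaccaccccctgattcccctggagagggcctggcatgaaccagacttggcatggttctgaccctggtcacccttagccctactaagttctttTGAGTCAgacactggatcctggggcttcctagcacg
The Tgfb1 window was 77% G and C over its 300 bases and held 6 GC boxes and no match to TATAAA. The Tgfb2 window was 54.3% G and C and held no GC box, with a TATA box whose first base lay at -31 and an E-box at -51. Ltbp1 had a CRE at -73, and Ltbp3 an AP-1 match at -6. None of these matches overlapped another. Among all 32851 windows of that table, GC boxes were in 35.7%, TATA boxes in 13.6%, AP-1 matches in 7.81%, E-boxes in 7.15%, CREs in 1.79% and the SMAD palindrome in 0.213%. These matches describe letters only. In the genome, the Tgfb2 and Ltbp2 windows also covered exons of Gm29491 and D030025P21Rik, which lie on the opposite strand in GENCODE M21.

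With HRAS(G12V) placed before the IRES, 9 of the 10 genes changed against SDD at an adjusted p under 0.05, where 42.6% of all tested genes were called. Tgfb1 alone rose, and 8 fell: Tgfb2, all 3 receptors and all 4 binding proteins (20.0% of all genes were called higher and 22.6% lower). The median log2 change of the 10 genes was -1.09, beside 0.02 over all tested genes. With HRAS(G12V) after the IRES, 6 of the 10 changed against SDD, 1 higher and 5 lower, where 22.5% of all genes were called (8.66% higher and 13.9% lower). The median of the 10 was then -0.74, beside 0.01 over all genes. These 2 comparisons share the SDD libraries, as does that of SDD with NIL. Adding p53DD, RepSox and the SNAP sort to NIL went with 6 changes among the 10, again 1 higher and 5 lower, where 17.6% of all genes were called (9.32% higher and 8.26% lower), and the median of the 10 was -0.41 beside 0.05. The gene that rose there was Tgfb2, not Tgfb1. Fitted on NIL and SDD alone, 4 of these 6 calls (Tgfb1, Tgfb2, Tgfbr2 and Ltbp3) were lost (adjusted p 0.0575 to 0.0936). More genes passed without NIL C: 10 members in RISDD against SDD (2 higher and 8 lower, where 63.5% of all genes were called), 9 in SDDIR against SDD (2 and 7, at 44.8%) and 7 in SDD against NIL (2 and 5, at 29.1%).

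**Figure D1:**
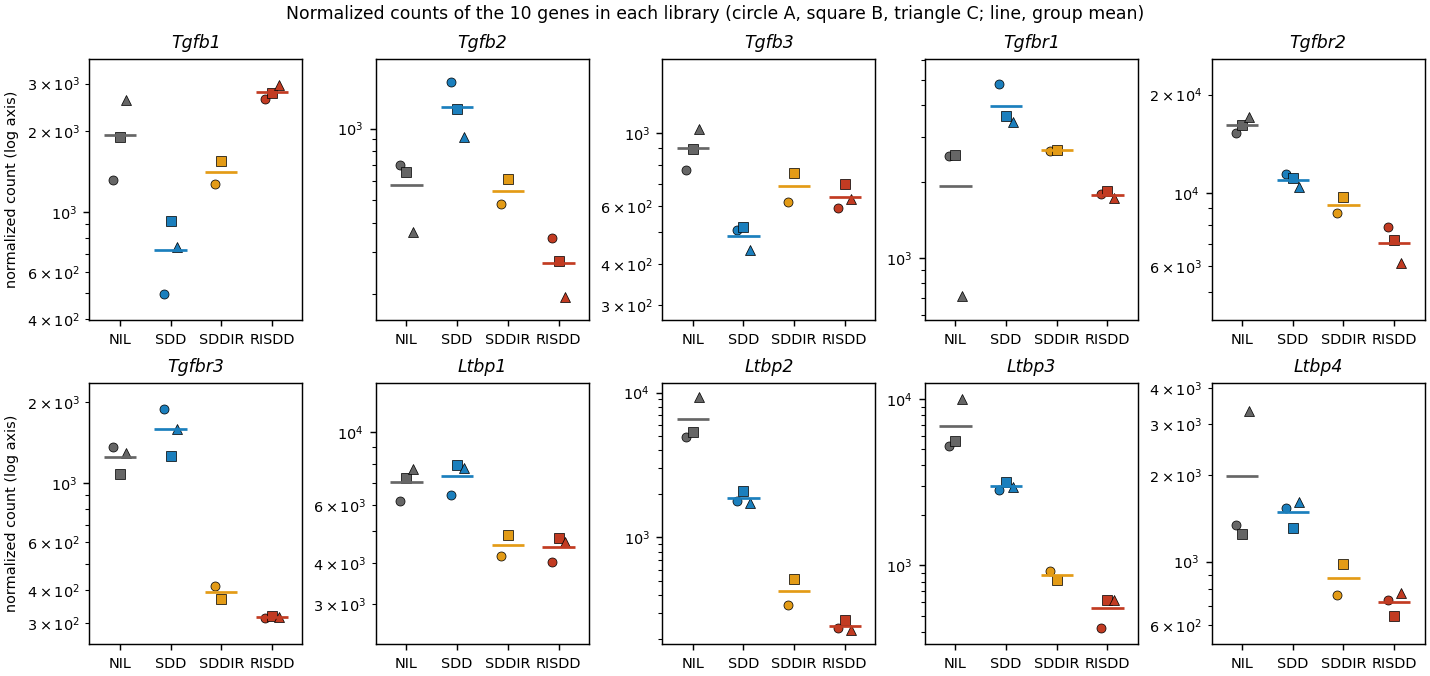
Normalized count (log axis, a separate range for each gene) of the 10 genes in each of the 11 libraries, with circles, squares and triangles for replicates A, B and C and a line at the group mean. Tgfb1 is lowest in SDD and highest in RISDD and Tgfb2 the reverse, while Ltbp2 and Ltbp3 step down from NIL through SDD and SDDIR to RISDD.

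Tgfb1 encodes the TGF-beta isoform most widely made by adult tissues and immune cells. Its normalized count was 1310.2, 1903 and 2598 in NIL A, B and C, 495, 929 and 740.3 in SDD, 1268 and 1552 in SDDIR A and B, and 2622, 2777 and 2959 in RISDD. SDD was the lowest group and RISDD the highest, SDD overlapped no other group, and NIL C lay just below the lowest RISDD library. Against NIL, Tgfb1 fell 2.67-fold in SDD (log2 change -1.42 ± 0.27 SE, adjusted p = 0.00609), and 2.26-fold without NIL C. Against SDD, it rose 3.98-fold in RISDD (log2 change 1.99 ± 0.27 SE, adjusted p = 0.000164) and 2.01-fold in SDDIR (log2 change 1.01 ± 0.30 SE, adjusted p = 0.0339). The change in RISDD ranked 675 from the highest among 14207 genes. The SDDIR call was lost without SDD A, SDD C, any RISDD library or either SDDIR library (adjusted p 0.0537 to 0.216), and with neither trend nor robust moderation (adjusted p = 0.0522). It held without NIL C (adjusted p = 0.0102). RISDD and SDDIR were not called different (log2 change 0.99, 95% interval 0.33 to 1.65, adjusted p = 0.0646). That difference was called without NIL A (adjusted p = 0.0396), without NIL C (0.0177) and without SDD A (0.0464).

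Tgfb2 encodes the isoform that binds the signalling receptors weakly unless betaglycan presents it. In normalized counts it had 702, 658 and 365 in NIL, 1575, 1214 and 918 in SDD, 478 and 612 in SDDIR and 345, 275 and 193 in RISDD. The 3 SDD libraries were above the other 8, and the 3 RISDD libraries were below all others, the reverse of Tgfb1. It rose 2.18-fold from NIL to SDD (log2 change 1.13 ± 0.30 SE, adjusted p = 0.0291), a call lost without SDD A (adjusted p = 0.112) or SDD B (0.0797), and with array weights (log2 change 0.72, adjusted p = 0.223). The rise was 1.77-fold without NIL C (adjusted p = 0.0451). Against SDD, Tgfb2 fell 4.56-fold in RISDD (log2 change -2.19 ± 0.30 SE, adjusted p = 0.000202) and 2.23-fold in SDDIR (log2 change -1.16 ± 0.34 SE, adjusted p = 0.0319). The SDDIR call did not hold without either SDDIR library, SDD A, SDD B or RISDD B (adjusted p from 0.0512 to 0.217), but held without NIL C (0.00703). Between the HRAS groups the log2 change was -1.03 (95% interval -1.78 to -0.29, adjusted p = 0.0839), and it was called without NIL C (adjusted p = 0.0191).

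Tgfb3, the isoform known from palate closure, had normalized counts of 771, 897 and 1029.8 in NIL, 506, 517 and 439 in SDD, 618 and 759 in SDDIR and 589.9, 699 and 632 in RISDD. Its group means spread least of the 3 ligands, with NIL the highest group and SDD the lowest, and SDD overlapped no other group. From NIL to SDD it fell 1.83-fold (log2 change -0.88 ± 0.15 SE, adjusted p = 0.00408), and this held in every alternative run. Its log2 change against SDD was 0.49 in SDDIR (adjusted p = 0.0569) and 0.39 in RISDD (adjusted p = 0.0547), neither called with all libraries. Without NIL A both passed (adjusted p = 0.048 and 0.0454), as they did without NIL C (0.00925 and 0.0107). Annotated exons of Gm48008 and Gm37804 overlap those of Tgfb3 on the opposite strand by up to 257 and 130 bases, and of Gm29491 those of Tgfb2 by up to 80. The libraries were made with a directional kit, but whether the counting used strand was not given in the sources used here, so reads of such partners could enter these values.

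**Figure D2:**
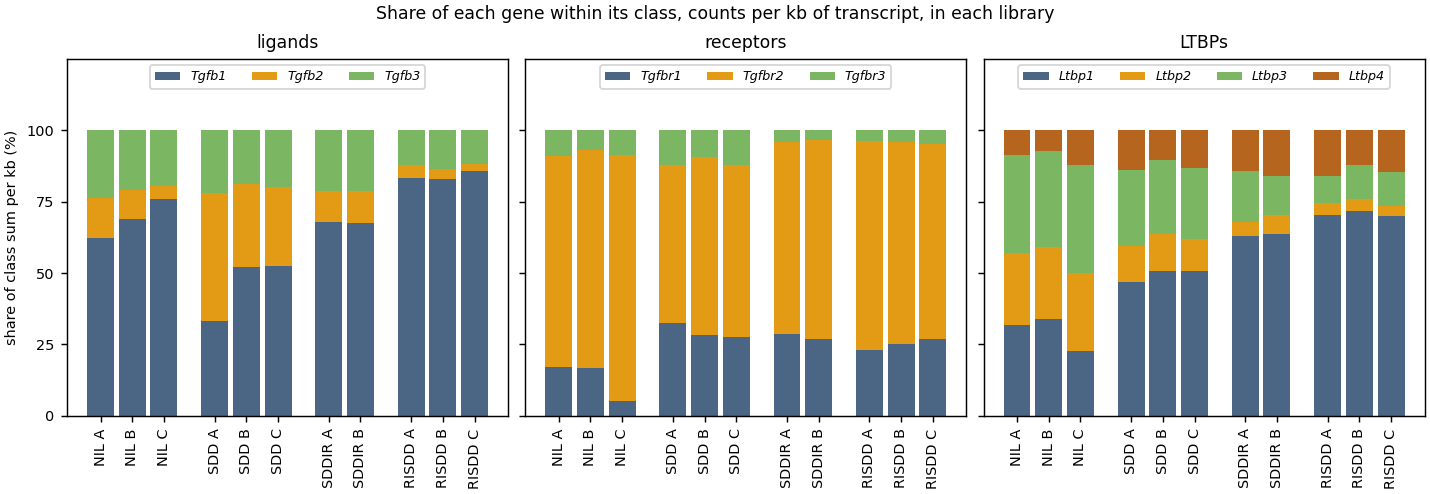
Share of each gene in its class (percent of the summed normalized counts per kb of transcript) in each library, for ligands, receptors and latent TGF-beta binding proteins (LTBPs). Tgfb2 takes 33.9% of the ligand sum on average in SDD and 3.51% in RISDD, and Ltbp1 grows from 29.5% of the LTBP sum in NIL to 70.8% in RISDD.

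To set the ligands against each other, counts were divided by the length of each gene's longest coding transcript, and each ligand was expressed as a share of the summed ligands per kb, a ratio from which the scaling of a library cancels. Tgfb1 made up 69.1% ± 6.91 of the ligand transcripts in NIL, 46% ± 11 in SDD and 84.1% ± 1.54 in RISDD (SD, n = 3 each), and 67.9% and 67.5% in the 2 SDDIR libraries. Tgfb2 made up 9.62% ± 4.84, 33.9% ± 9.62 and 3.51% ± 1.14 of them in the same order, and 10.9% and 11.3% in SDDIR. SDD was thus the group with the most even mix, and in SDD A there was more Tgfb2 than Tgfb1 per kb, at a ratio of Tgfb1 to Tgfb2 of 0.739. The ratio was 1.80 and 1.90 in SDD B and C, 4.39, 6.81 and 16.8 in NIL A, B and C, 6.24 and 5.97 in SDDIR, and 17.9, 23.8 and 36.1 in RISDD. The SDD shares of Tgfb1 and Tgfb2 overlapped with neither NIL nor RISDD, and the exact two-sided permutation p was 0.1 in each case, the smallest that 3 against 3 libraries allow (0.118 adjusted over 20 such tests). The share of Tgfb3 was 21.3% in NIL, 20.2% in SDD and 12.4% in RISDD, with an exact permutation p of 0.6 for SDD against NIL and 0.1 for RISDD against SDD. The mean summed ligand level per kb was highest in RISDD (1523), followed by NIL (1269), SDDIR (958) and SDD (717). The NIL libraries (967.5 to 1570) overlapped with RISDD (1447 to 1585) and with SDDIR (859 to 1057).

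Tgfbr1 encodes the type I receptor, the kinase that RepSox inhibits. Normalized counts of this gene were 2519, 2536 and 714 in NIL, 4832, 3609 and 3433 in SDD, 2636 and 2667 in SDDIR and 1781, 1830.3 and 1718 in RISDD. The SDD libraries were the highest and overlapped none of the others, the RISDD libraries lay below SDDIR, and NIL C was far below NIL A and B. The log2 change from NIL to SDD was 1.24 (adjusted p = 0.0569), not called. It passed without NIL A (adjusted p = 0.034), without NIL B (0.0298) and without NIL C, where its size was 0.63 (adjusted p = 0.00428). In RISDD, Tgfbr1 fell 2.2-fold against SDD (log2 change -1.14 ± 0.40 SE, adjusted p = 0.041), but without any single SDD, RISDD or SDDIR library the call was lost (adjusted p 0.0606 to 0.138), as it was with neither trend nor robust moderation (adjusted p = 0.0605). This call held without NIL C (adjusted p = 7.93e-06). In SDDIR the log2 change against SDD was -0.56 (adjusted p = 0.429), which passed without NIL C (adjusted p = 0.00412).

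Tgfbr2 encodes the type II receptor, which binds the ligand first. Normalized counts were 15231, 16124 and 17119.9 in NIL, 11494, 11109 and 10438 in SDD, 8725 and 9734 in SDDIR and 7877, 7191 and 6149 in RISDD. The 4 groups stepped down in that order, and none of the 4 overlapped another. Tgfbr2 fell 1.47-fold from NIL to SDD (log2 change -0.55 ± 0.12 SE, adjusted p = 0.0113), a call lost without SDD C (adjusted p = 0.0529) and with quantile scaling (log2 change -0.30, adjusted p = 0.0845). From SDD to RISDD it fell a further 1.56-fold (log2 change -0.65 ± 0.12 SE, adjusted p = 0.00131), which held in every alternative run. SDDIR lay between SDD and RISDD and was called different from neither (-0.26 against SDD with adjusted p = 0.206, and RISDD -0.39 against SDDIR with adjusted p = 0.0945, both log2 changes). The difference between the HRAS groups was called without NIL C (adjusted p = 0.0169).

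Tgfbr3 encodes betaglycan, the co-receptor that has no kinase and hands TGF-beta2 to the type II receptor. Its normalized count was 1361, 1076 and 1295 in NIL, 1891, 1260 and 1594 in SDD, 412 and 369.9 in SDDIR and 314, 321 and 315 in RISDD. The libraries fell into a high set without HRAS(G12V), in which NIL and SDD overlapped, and a low set with it. Against SDD it fell 3.99-fold in SDDIR (log2 change -2.00 ± 0.18 SE, adjusted p = 5.74e-05) and 4.91-fold in RISDD (log2 change -2.30 ± 0.16 SE, adjusted p = 2.06e-06), and both calls held in every alternative run. NIL and SDD were not called different (log2 change 0.33, 95% interval -0.02 to 0.69, adjusted p = 0.169). Exons of Gm43422 overlap those of Tgfbr3 on the same strand by up to 297 bases, so some of its reads could be counted to either gene.

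Per kb of transcript, the type II receptor was the most abundant receptor in all 11 libraries. Tgfbr2 took 59.2% of the receptor sum in SDD, against 78.9% in NIL, 70.7% in RISDD and 68.4% in SDDIR. Tgfbr1 took 29.6% in SDD, 13.1% in NIL, 25.1% in RISDD and 27.7% in SDDIR. The NIL mean for Tgfbr1 rests on shares of 17.2% and 16.9% in NIL A and B and 5.06% in NIL C. Tgfbr3 took 8.08% and 11.2% in NIL and SDD, and 3.87% and 4.24% in SDDIR and RISDD. For each receptor SDD overlapped with neither NIL nor RISDD, at an exact permutation p of 0.1, the smallest possible. These percentages depend on the transcript taken for Tgfbr2: with its shorter coding transcript the share of Tgfbr2 was 89.6% in NIL, 77.1% in SDD and 84.8% in RISDD.

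Ltbp1 encodes the binding protein that fibroblasts secrete with latent TGF-beta1. Its normalized count was 6159.6, 7245 and 7746 in NIL, 6429, 7962 and 7757 in SDD, 4212 and 4861 in SDDIR and 4029, 4773 and 4633 in RISDD. NIL and SDD overlapped, SDDIR and RISDD overlapped, and all 5 HRAS libraries were below the 6 others. It fell 1.65-fold in RISDD against SDD (log2 change -0.72 ± 0.14 SE, adjusted p = 0.00158) and 1.62-fold in SDDIR (log2 change -0.70 ± 0.15 SE, adjusted p = 0.00766), and leaving out SDDIR A ended the SDDIR call (adjusted p = 0.0891). Between NIL and SDD the log2 change was 0.07 (95% interval -0.23 to 0.37, adjusted p = 0.755).

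Ltbp2 belongs to the same family by sequence but does not bind latent TGF-beta, and is known as an elastic fibre protein. Counts after normalization were 4951, 5392 and 9378 in NIL, 1789, 2082 and 1743 in SDD, 344 and 515 in SDDIR and 236, 270 and 230 in RISDD. All 4 groups were separate, in that order from high to low. The gene fell 3.38-fold from NIL to SDD (log2 change -1.76 ± 0.24 SE, adjusted p = 0.00135), and 2.77-fold without NIL C. Against SDD it fell another 4.43-fold in SDDIR (log2 change -2.15 ± 0.26 SE, adjusted p = 0.000333) or 7.59-fold in RISDD (log2 change -2.92 ± 0.24 SE, adjusted p = 5.87e-06). From NIL to RISDD the fall was 25.6-fold (log2 change -4.68 ± 0.24 SE, adjusted p = 3.12e-07), which ranked 104 from the lowest among 14207 genes. Without NIL C, whose value was the highest, that fall was 21-fold.

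Ltbp3 encodes a binding protein of latent TGF-beta known for its role in bone and teeth. The libraries held normalized counts of 5205, 5575 and 10066 in NIL, 2843, 3186 and 2967 in SDD, 922 and 822 in SDDIR and 422, 619.9 and 618 in RISDD. It showed the same 4 separate steps as Ltbp2. From NIL to SDD it fell 2.21-fold (log2 change -1.15 ± 0.24 SE, adjusted p = 0.0106), and 1.8-fold without NIL C. Against SDD it fell 3.44-fold in SDDIR (log2 change -1.78 ± 0.27 SE, adjusted p = 0.00114) and 5.49-fold in RISDD (log2 change -2.46 ± 0.24 SE, adjusted p = 2.09e-05). From NIL to RISDD it fell 12.2-fold (log2 change -3.60 ± 0.24 SE, adjusted p = 1.81e-06), and 9.87-fold without NIL C. An exon of D030025P21Rik overlaps Ltbp2 on the opposite strand by up to 764 bases, and its reads could enter the Ltbp2 values.

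Ltbp4 encodes a binding protein of latent TGF-beta1 that also assembles elastic fibres. Normalized counts were 1335, 1251 and 3341 in NIL, 1538, 1311 and 1610.2 in SDD, 766 and 982 in SDDIR and 738, 647 and 781 in RISDD. NIL C was the highest library, NIL A and B overlapped with SDD, and SDDIR and RISDD lay below both and overlapped with each other. Against SDD, Ltbp4 fell 2.06-fold in RISDD (log2 change -1.04 ± 0.31 SE, adjusted p = 0.0215), a call lost without SDD A (adjusted p = 0.0669), SDD C (0.07), RISDD A (0.0552) or RISDD B (0.0738). That call held without NIL C (adjusted p = 2.16e-05). In SDDIR the log2 change was -0.77 (adjusted p = 0.152), called without NIL C (adjusted p = 0.000835). Between NIL and SDD it was -0.26 (adjusted p = 0.581) and 0.20 without NIL C (adjusted p = 0.283).

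As a share of the summed LTBP level per kb, Ltbp1 grew from NIL to RISDD. It took 29.5% ± 5.99 in NIL, 49.4% ± 2.27 in SDD and 70.8% ± 1.01 in RISDD (SD, n = 3 each), and 63.0% and 63.6% in SDDIR. Ltbp2 took 25.8% and 12.4% in NIL and SDD, and 5.85% and 3.83% in SDDIR and RISDD. Ltbp3 took 35.4%, 25.9%, 15.8% and 11.2% in that order. Each of these 3 genes had no overlap between SDD and NIL or between SDD and RISDD, at an exact permutation p of 0.1, the smallest possible. Ltbp4 held 9.32%, 12.4%, 15.1% and 14.2% in the same order, with exact permutation p of 0.2 and 0.4. The summed LTBP level per kb had means of 3734 and 2237 in NIL and SDD, and of 1074 and 948 in SDDIR and RISDD. In NIL it ran from 2906 to 5106, the highest in NIL C. The receptor sum went from 2535 and 2308 in NIL and SDD to 1666 and 1235 in SDDIR and RISDD.

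**Figure D3:**
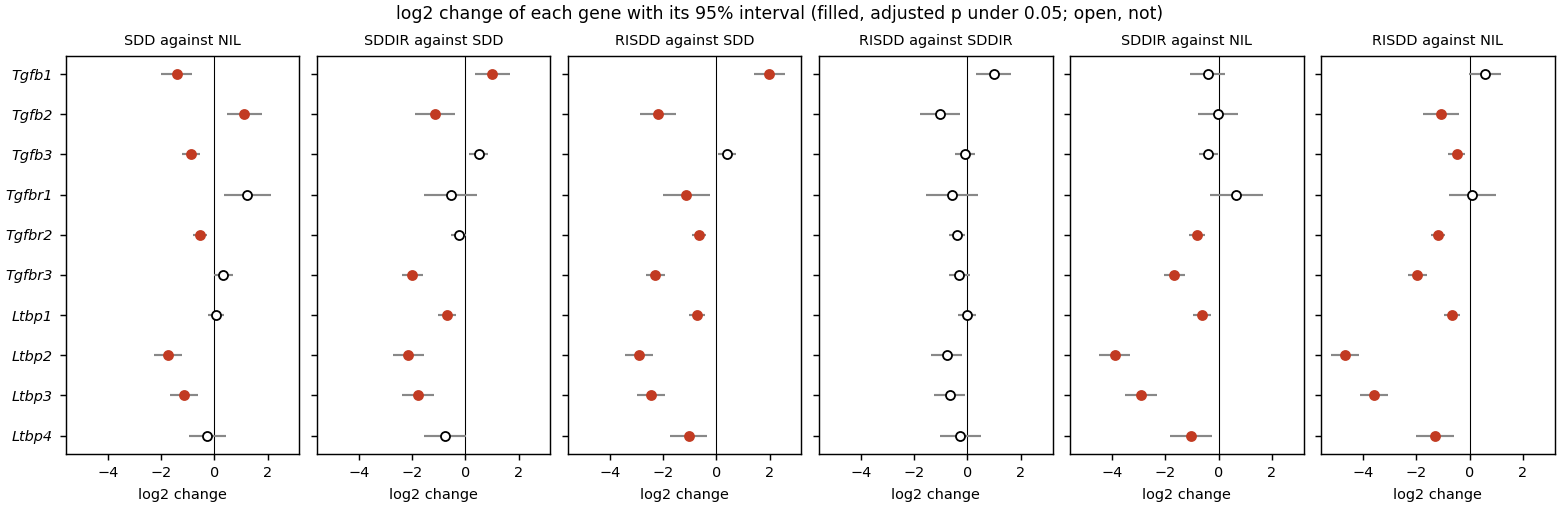
log2 change of the 10 genes with its 95% interval in the 6 comparisons, filled where the adjusted p was under 0.05. In RISDD against SDD all but Tgfb3 are filled, and in RISDD against SDDIR none is.

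Placing HRAS(G12V) before rather than after the IRES gave no called difference in these 10 genes, where 9.69% of all tested genes were called (4.64% higher and 5.05% lower). In limma, 5 of the 10 had an unadjusted p under 0.05, Tgfb1 higher in RISDD and Tgfb2, Tgfbr2, Ltbp2 and Ltbp3 lower. The share of all tested genes under that unadjusted threshold was not counted, so nothing is drawn from this number. The values of 7 of the 10 did not overlap between RISDD and SDDIR, as for 60.1% of all tested genes. Other fits gave between 0 and 6 calls: edgeR on the recovered reads 0, DESeq2 4, and limma 6 without NIL C, where 29.6% of all genes were called. The 95% intervals of uncalled genes were wide: for Ltbp2 the log2 change was -0.78 (-1.36 to -0.19, adjusted p = 0.0955), for Ltbp3 -0.68 (-1.27 to -0.08, adjusted p = 0.154) and for Tgfbr3 -0.30 (-0.70 to 0.09, adjusted p = 0.352). Ltbp1 was the closest to equal, at -0.02 (-0.35 to 0.32, adjusted p = 0.965).

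Against NIL, which had neither RepSox nor the SNAP sort, Tgfbr2, Tgfbr3 and all 4 binding proteins were lower in both HRAS groups. RISDD had 8 of the 10 genes lower and none higher, where 46.7% of all genes were called (23.2% higher and 23.5% lower), and SDDIR had 6 lower, where 33.5% were called (15.3% higher and 18.2% lower). Without NIL C, RISDD had 9 lower and 1 higher (59.5% of all genes called), and SDDIR again had 6 lower (48.6%). Tgfbr2 fell 2.29-fold in RISDD (log2 change -1.20 ± 0.12 SE, adjusted p = 2.33e-05) and 1.75-fold in SDDIR (log2 change -0.81 ± 0.13 SE, adjusted p = 0.00128). Tgfbr3 fell 3.9-fold in RISDD (log2 change -1.96 ± 0.16 SE, adjusted p = 6.55e-06) and 3.16-fold in SDDIR (log2 change -1.66 ± 0.18 SE, adjusted p = 0.00011). In SDDIR, Ltbp2 fell 15-fold and Ltbp3 7.61-fold (adjusted p = 9.5e-06 and 4.97e-05), and 12.3-fold and 6.18-fold without NIL C. Ltbp1 fell 1.57-fold in RISDD (adjusted p = 0.00291) and 1.55-fold in SDDIR (adjusted p = 0.00959), a call that leaving out SDDIR A (adjusted p = 0.101) or fitting only the 2 groups (0.0922) ended in SDDIR.

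The remaining members depended more on single libraries in these comparisons. Ltbp4 fell 2.46-fold in RISDD (log2 change -1.30 ± 0.31 SE, adjusted p = 0.00683) and 1.79-fold without NIL C. In SDDIR the Ltbp4 change was -1.03 (adjusted p = 0.0448), which became -0.58 without NIL C (adjusted p = 0.007) and lost its call without any single SDD, RISDD or SDDIR library (adjusted p 0.0624 to 0.245), with only the 2 groups fitted (0.208), with no filter (0.0555) and with no moderation (0.0649). Tgfb2 fell 2.09-fold in RISDD (adjusted p = 0.0151), a call lost without NIL A (0.0527) or RISDD C (0.0676). Tgfb3 fell 1.4-fold in RISDD (adjusted p = 0.0219), lost without RISDD A (0.084) or RISDD C (0.0652), with array weights (0.0552) and with only the 2 groups fitted (0.0614). Tgfb1 in RISDD was 0.58 on the log2 scale against NIL (adjusted p = 0.098) and passed without NIL C (log2 change 0.82, adjusted p = 0.019). Tgfbr1 in RISDD turned from 0.10 (adjusted p = 0.858) to a called fall without NIL C (log2 change -0.51, adjusted p = 0.00469). In SDDIR the ligands and Tgfbr1 were not called against NIL, at log2 changes of -0.41 for Tgfb1, -0.03 for Tgfb2, -0.38 for Tgfb3 and 0.68 for Tgfbr1 (adjusted p 0.1 to 0.951).

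Among themselves, the members varied together in part across the 11 libraries, which share their groups and their scaling, so the correlations are descriptions. Ltbp2 and Ltbp3 followed each other most closely (Pearson's r = 0.99 of log2 values over 11 libraries), and Tgfbr2 followed Ltbp2 (r = 0.964). Tgfb1 and Tgfb2 ran opposite to each other (r = -0.923). Of 10657 tested genes with a mean value of at least 100, those closest to Ltbp2 were Col5a1, a fibrillar collagen (r = 0.994), Mmp24os1 and Fbln2, and Fbln2 (fibulin 2) and Col5a1 were also the nearest to Ltbp3, with Lrp1 next. Tgfbr3 ran closest to Ablim1 (r = 0.993), Heg1 and Col14a1, Tgfbr2 to Mxra7 (r = 0.985), Ldaf1 and Ephx1, and Tgfbr1 to Pcm1 (r = 0.985), Rmnd5a and Anapc1. For the ligands the nearest were Niban2 (r = 0.988), Sipa1l2 and Pip4k2b for Tgfb1, Robo2 (r = 0.985), Epha5 and Psd3 for Tgfb2, and Abcg1 (r = 0.95), Aldh4a1 and Araf for Tgfb3. Ltbp1 ran closest to Tlr2 (r = 0.963), Nfic and Ccl2, and Ltbp4 to Emc10 (r = 0.984), Phf2 and Ctbp1.

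**Figure D4:**
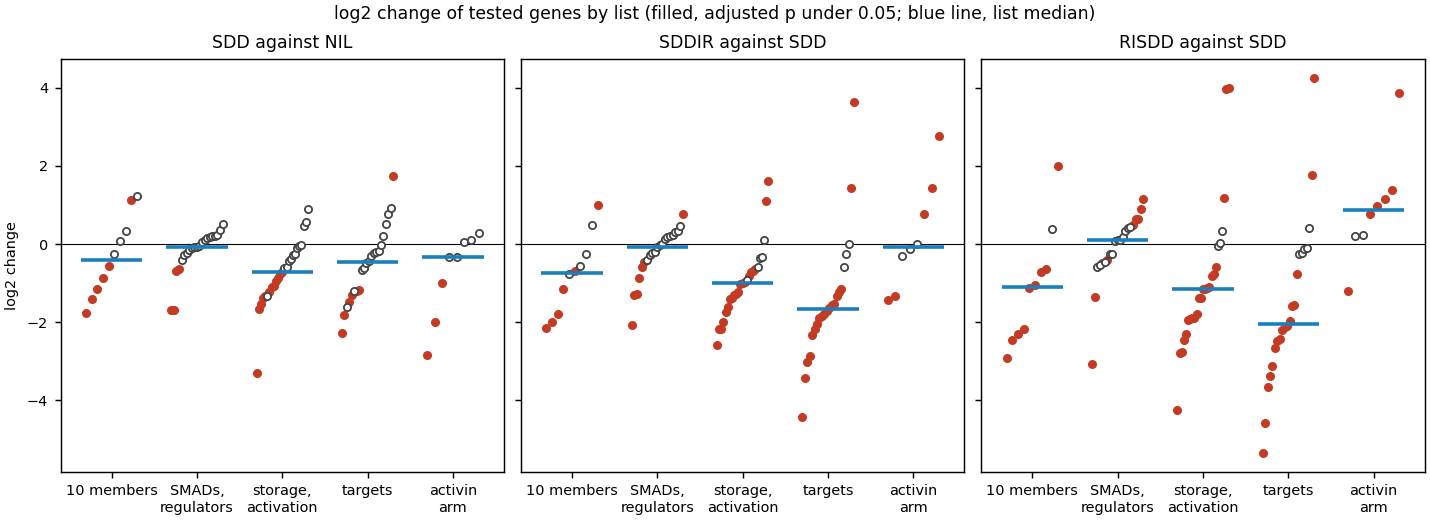
log2 change of each tested gene of the 10 members and of 4 further pathway lists in SDD against NIL, SDDIR against SDD and RISDD against SDD, filled where the adjusted p was under 0.05, with a line at the list's median. Storage and target genes lie mostly below 0 in both HRAS comparisons, with medians of -1.16 and -2.05 in RISDD against SDD, while the SMADs and regulators have a median of 0.10 with called genes on both sides of 0.

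Most of the other genes for proteins that store or release TGF-beta also fell in the HRAS groups. Of 25 tested of 26 listed genes for storage and activation, 12 fell and none rose from NIL to SDD, 18 fell and 2 rose in SDDIR against SDD, and 19 fell and 3 rose in RISDD against SDD (medians -0.72, -0.997 and -1.16, beside 0.05, 0.01 and 0.02 over all tested genes, of which 17.6%, 22.5% and 42.6% were called). Without NIL C, 14 fell and none rose from NIL to SDD, where 29.1% of all genes were called. Lrrc32, which displays latent TGF-beta on the cell surface, fell 9.86-fold from NIL to SDD (adjusted p = 5.6e-05). Fbln5, an elastic fibre protein, fell 5.97-fold in SDDIR and 19.2-fold in RISDD against SDD (adjusted p = 2.61e-05 and 9.18e-08). Thbs1, a thrombospondin that can activate latent TGF-beta, fell 4.5-fold in SDDIR (adjusted p = 0.000209). Against that direction, Itgb3, a subunit of an integrin that releases TGF-beta, rose 15.9-fold and Plau, the urokinase protease, 15.7-fold in RISDD against SDD (adjusted p = 5.99e-07 and 1.52e-06). Both were also higher in RISDD than in SDDIR, by 5.16-fold and 7.39-fold (adjusted p = 0.000646 and 0.000523), in a comparison where 3 of the 25 were higher and 4 lower (9.69% of all tested genes were called). Without NIL C these counts were 5 and 7, where 29.6% of all genes were called.

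Genes for SMADs and pathway regulators, a list that also holds receptor genes such as Acvrl1 and Eng, had medians near 0. Of 21 such genes, 4 fell from NIL to SDD, 6 fell and 1 rose in SDDIR against SDD, and 4 fell and 5 rose in RISDD against SDD (medians -0.08, -0.08 and 0.10). In SDD against NIL and RISDD against SDD these counts were near the 17.6% and 42.6% of all tested genes called, and in SDDIR against SDD 22.5% of all genes were called. Leaving out NIL C changed the counts to 6 lower and 1 higher in SDD against NIL, 7 and 5 in SDDIR against SDD, and 9 and 8 in RISDD against SDD, where 29.1%, 44.8% and 63.5% of all genes were called. From NIL to SDD, Acvrl1 fell 3.21-fold and Eng 3.2-fold (adjusted p = 0.00141 and 0.00336). In SDDIR against SDD they fell 2.48-fold and 2.45-fold (adjusted p = 0.00444 and 0.012), and Eng fell 2.55-fold in RISDD (0.00243). Smad6, an inhibitory SMAD, fell 4.21-fold in SDDIR and 8.48-fold in RISDD against SDD (adjusted p = 0.00415 and 6.26e-05). Tgif1, a corepressor of SMADs, rose 2.21-fold in RISDD against SDD (adjusted p = 0.000401). Smad3 was the only gene of that list called between the HRAS groups, 1.65-fold higher in RISDD (adjusted p = 0.0155). Without NIL C, however, 6 of the 21 were higher and 1 lower there (9.69% of all tested genes were called with NIL C and 29.6% without it).

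Of 22 target genes, 6 fell and 1 rose from NIL to SDD, 17 fell and 2 rose in SDDIR against SDD, and 15 fell and 2 rose in RISDD against SDD (medians -0.46, -1.67 and -2.05, beside 0.05, 0.01 and 0.02 over all tested genes, of which 17.6%, 22.5% and 42.6% were called). Without NIL C, 6 fell and 3 rose from NIL to SDD, where 29.1% of all genes were called. Tagln, a smooth muscle actin-binding protein, fell 4.85-fold and Pmepa1, a feedback inhibitor of the pathway, 3.55-fold from NIL to SDD, while Klf10 rose 3.35-fold (adjusted p = 0.00433, 0.000287 and 6.66e-05). Against SDD, Lox, which crosslinks collagen, fell 10.8-fold in SDDIR and 40.9-fold in RISDD (adjusted p = 2.61e-06 and 1.79e-08). Ccn2 fell 21.5-fold in SDDIR and Col1a1 23.8-fold in RISDD (adjusted p = 1.4e-05 and 5.29e-07). The cytokine gene Il11 rose 12.4-fold and 19.1-fold in the same comparisons (adjusted p = 0.00296 and 0.000203).

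The activin arm, which signals through the same SMADs by other receptors, held called genes in both directions. Of 8 tested of 9 listed genes, 3 fell from NIL to SDD, 3 rose and 2 fell in SDDIR against SDD, and 5 rose and 1 fell in RISDD against SDD (medians -0.34, -0.07 and 0.87). Over all tested genes the medians were 0.05, 0.01 and 0.02, and 17.6%, 22.5% and 42.6% were called. Fst (follistatin), which traps activin, rose 6.76-fold and 14.5-fold against SDD (adjusted p = 0.000327 and 4.74e-06). The activin subunit genes Inhba and Inhbb were 4.63-fold and 2.94-fold higher in RISDD than in SDDIR (adjusted p = 0.000902 and 0.00579), where 2 of the 8 genes were higher and 1 lower (9.69% of all tested genes were called). Without NIL C, 5 of the 8 were higher and 1 lower, where 29.6% of all genes were called. Inhba and Inhbb had fallen 2.73-fold and 2.53-fold in SDDIR against SDD (adjusted p = 0.0026 and 0.00475). Mean values in NIL, SDD, SDDIR and RISDD were 3385, 3486, 1282 and 5951 for Inhba. For Inhbb they were 4459, 1105, 446 and 1288.

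Markers of cell types moved with these groups too. All 12 fibroblast markers were detected in every group, as the label of the cells says, and their summed value was 171034 to 177878 in RISDD, 203808 to 224478 in SDDIR, 548926 to 675558 in SDD and 719994 to 1212080 in NIL (the highest in NIL C). Of the 12, 2 fell and 1 rose from NIL to SDD (2 and 2 without NIL C). In SDDIR against SDD 9 fell and 1 rose, and in RISDD against SDD 11 fell and 1 rose. Of all tested genes, 17.6%, 22.5% and 42.6% were called in these comparisons, and 29.1% in SDD against NIL without NIL C. The fibroblast counts in SDD against NIL were near those shares. The 12 neuron markers summed to 22190 to 24361 in RISDD, 9158 to 9542 in SDDIR, 8818 to 16276 in SDD and 3944 to 7486 in NIL. Their sum hid opposite changes: of 11 tested, 5 rose and 5 fell in RISDD against SDD (median log2 change -0.68), with Nefl, Nefm and Gap43 among the higher and Tubb3, Dcx and Ina among the lower, named after their values were seen. Of the same 11, 5 rose and none fell from NIL to SDD (7 rose without NIL C), and 1 rose and 2 fell in SDDIR against SDD. The last count was near the 22.5% of all tested genes called there. The 12 leukocyte markers summed to 4157, 16284 and 7008 in NIL A, B and C, 709 to 1897 in SDD, 395 to 1033 in SDDIR, where Cx3cr1 was at 0, and 915 to 1838 in RISDD. The epithelial markers, 8 of 9 in the table, summed to 915 to 1021 in NIL with Cldn4 at 0, and to 63.9 to 72.2 in SDD with Cdh1, Krt14 and Cldn4 at 0. They summed to 2431 to 3772 in SDDIR and 8743 to 12802 in RISDD, with Krt14 at 0 in both. The 8 endothelial markers summed to 72.4 to 114 in NIL and SDD (Tie1 and Cldn5 at 0 in NIL, Emcn in SDD), 172 to 178 in SDDIR (those 3 at 0) and 533 to 632 in RISDD (Emcn at 0). The 8 mural cell markers summed to 819 to 1005 in RISDD, 534 to 740 in SDDIR, 851 to 1031 in SDD and 1899 to 2826 in NIL, with Kcnj8 at 0 in SDDIR and RISDD. The 8 Schwann and neural crest markers summed to 347 to 488, 91.5 to 161, 157 to 222 and 300.3 to 358 in the order NIL, SDD, SDDIR and RISDD. The part of these differences in the changes of the 10 genes was not tested.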

How the data were processed

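RNA-seq of sorted mouse embryonic fibroblasts was taken from the authors' deposited table. Its values are signal: gene counts that the authors had divided by a constant per library. The tools named are Trim Galore 0.6.10 and Salmon 1.10.3, with the build GRCm39, per the submitters' processing notes. How transcripts were summed and libraries scaled was not given in the sources used here. Libraries were made with a directional kit, per the labels' protocols. Every value was a whole multiple of what 1 read is worth in its library (100% at a tolerance of 0.001), so reads could be recovered. The heading SDDIR B stood on 2 columns with identical values, which were counted once, and 1 sample labelled SDDIR was therefore not analysed here. Whether these values belong to replicate B or C could not be settled, and they are called SDDIR B.

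Of 23077 genes, the 14207 that reached 10 in 3 or more libraries were fitted on log2(value + 1) with limma 3.58.1 (R 4.3.3), all 4 groups in 1 fit, using trend and robust moderation. Fold changes are on that scale. Genes were called at a Benjamini-Hochberg adjusted p under 0.05 over all tested genes. Differences are the first group minus the second. The fit was tested on simulated data that held no outlying library such as NIL C, so that run does not show how such a library affects the calls. Shares per kb used the longest coding transcript of GENCODE M21 and exact two-sided permutation tests with scipy 1.17.1.

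All 10 members are named in every comparison. From each pathway list and comparison, up to 3 called genes were picked, those with the largest log2 changes in size whose mean in either group reached 100. The text names some of the genes picked, not always the largest. Nearest genes are the 3 with the highest Pearson correlation. The members and all lists were chosen with earlier results of these data known. Alternatives were upper-quartile and quantile scaling, other pseudocounts and filters, no moderation, array weights, a fit of the 2 groups compared, a replicate block, edgeR 4.0.16 and DESeq2 1.42.0 on recovered reads, and each library left out. Other transcript lengths and list counts without NIL C were added after the data were seen. A withheld item is not reported here.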

Additional observations from a re-analysis of the deposited data

How the results depend on the processing

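Of 35 called changes of the members over 6 comparisons, 22 kept their call and direction in all 23 alternatives, 13 lost the call in at least 1 and none reversed. Fitting only the 2 groups compared gave 2 member calls for SDD against NIL. For RISDD against SDDIR the count of 0 became 1 with quantile scaling, 6 with array weights, 6 with only the 2 groups, 4 with DESeq2 and 0 with edgeR. Leaving out each library gave 0 to 6 calls there (6 without NIL C) and 3 to 9 for SDDIR against SDD, the 3 without SDDIR A. The replicate letters were not taken as pairs, though libraries of the same letter were somewhat alike. Same-letter libraries of different groups correlated at r = 0 to 0.271 in 15 pairs, 9 of them over 0.1. Libraries of different letters correlated at r = -0.198 to 0.137, and 9 of 11 libraries correlated best with their own letter. The letter of SDDIR B is itself in doubt. With a replicate block, 2 members were called for RISDD against SDDIR (Tgfb1, adjusted p = 0.0403, and Tgfb2, 0.0337), as were Tgfbr1 in SDD against NIL (0.0331) and Tgfb1 in RISDD against NIL (0.0342), and Ltbp4 in SDDIR against NIL was not (0.063). Signs turned for uncalled values only. Tgfbr1 in RISDD against NIL was -0.43 with array weights, -0.11 with DESeq2, -0.13 with edgeR and -0.51 to 0.40 over libraries left out. Ltbp4 in SDD against NIL was 0.16 with array weights and -0.51 to 0.20 over libraries left out. Over libraries left out, Ltbp1 was -0.027 to 0.16 in SDD against NIL and -0.12 to 0.085 in RISDD against SDDIR, Tgfb2 was -0.33 to 0.15 in SDDIR against NIL, Tgfb3 was -0.25 to 0.047 in RISDD against SDDIR, and the share of Tgfb3 in SDD minus NIL was -2.05 to 0.0324 percentage points. Over all tested genes, 2498 genes were called for SDD against NIL, 1433, 1517 and 1226 when SDD A, B or C was left out, and 4114 when NIL C was. For SDDIR against SDD 3199 were called, and 6336 without NIL C, 1673 without SDDIR A and 1695 without SDDIR B. For RISDD against SDDIR 1377 were called, and 4186 without NIL C, 692, 571 and 652 without RISDD A, B and C, and 308 and 446 without SDDIR A and B. For SDDIR against NIL 4759 were called, and 2347 and 2592 without SDDIR A and B. Array weights gave 6902 for SDDIR against SDD, 9781 for RISDD against SDD (6046 in the fit reported) and 5346 for RISDD against SDDIR, where DESeq2 gave 2258. Fits of only the 2 groups gave 697, 5361, 4923 and 1590 for SDD against NIL, then SDDIR against SDD, then RISDD against SDDIR, then SDDIR against NIL. Quantile scaling moved the split for SDDIR against SDD from 1230 higher and 1969 lower to 1718 and 1790. Without length or with another transcript, 6 and 3 of 20 share differences moved by more than the replicate spread. The lowest value of a member was 193 (Tgfb2 in RISDD C).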
